A study of Mus musculus with 12 samples.

Results

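Dopaminergic neuron genes of the dorsal raphe (DR) were followed by 10 genes, namely Th, Slc6a3, Drd2, Pitx3, Aldh1a1, Nr4a2, En1, Foxa1, Chrna6 and Ntsr1. They were taken from the count tables by gene symbol, and all 10 were found among the 24421 genes listed and passed the filter on low counts. RNA was sequenced from a block of tissue below the cerebral aqueduct in 12 mice, 4 control (2 female, 2 male) and 8 STAT3 KO (4 female, 4 male), with 1 library per animal. STAT3 KO mice were Sert Cre/+; Stat3 fl/fl and controls were their Sert Cre/+; Stat3 fl/+ littermates, all on a C57BL/6 x 129 background, as young adults without drug treatment stated for these samples. Both groups thus carried the Cre driver inserted at the serotonin transporter locus Slc6a4, and the controls also carried 1 floxed Stat3 allele. Cre acts in cells that express Slc6a4, which dopaminergic neurons are not known for, and the tissue was not sorted. The comparison therefore set mice with both Stat3 alleles floxed against mice with 1, with Cre in serotonergic cells of both groups. It asked whether this went with a different level of these genes in the DR. The paper states that it could not show a full lack of STAT3 in each serotonergic cell.

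Dopaminergic neurons make dopamine from tyrosine, load it into vesicles, release it and take it back up through a transporter in the membrane. The DR and the grey matter around the aqueduct hold a small population of such neurons among the far more numerous serotonergic cells. Neurons of this kind keep their identity through a set of transcription factors that includes NR4A2, PITX3, FOXA1 and EN1. Th encodes tyrosine hydroxylase, the rate-limiting enzyme of catecholamine synthesis, and is shared with noradrenergic neurons, whereas Slc6a3 encodes the dopamine transporter and marks dopaminergic neurons more narrowly.

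The promoters of Th, Slc6a3 and Foxa1 are shown as those of an enzyme, a transporter and a transcription factor of dopaminergic neurons whose levels covaried over the 12 libraries, for Foxa1 less so without the 2 most extreme of them. The sequences are from RefSeq on GRCm38.p6, run 5′ to 3′ on the strand of the gene and hold 250 bases before and 50 bases from the start site on. Capitals mark a cyclic AMP response element (TGACGTCA) in Th and a forkhead site (TGTTTAC, here read on the other strand) in Foxa1, and the Slc6a3 promoter held no match. Th lies at chr7:142899946-142900245 on the minus strand, Slc6a3 at chr13:73536497-73536796 on the plus strand and Foxa1 at chr12:57546062-57546361 on the minus strand.
Th: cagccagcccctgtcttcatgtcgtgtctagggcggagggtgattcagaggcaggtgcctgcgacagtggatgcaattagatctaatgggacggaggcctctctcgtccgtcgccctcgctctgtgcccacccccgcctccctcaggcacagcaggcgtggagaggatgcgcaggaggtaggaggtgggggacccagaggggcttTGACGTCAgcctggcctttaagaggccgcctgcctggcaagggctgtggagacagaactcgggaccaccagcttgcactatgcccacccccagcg
Slc6a3: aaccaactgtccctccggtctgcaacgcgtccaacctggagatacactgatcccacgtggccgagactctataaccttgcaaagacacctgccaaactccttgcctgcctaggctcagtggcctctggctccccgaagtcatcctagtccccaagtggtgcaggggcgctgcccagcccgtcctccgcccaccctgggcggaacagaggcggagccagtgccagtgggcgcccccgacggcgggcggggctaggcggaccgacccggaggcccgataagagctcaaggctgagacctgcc
Foxa1: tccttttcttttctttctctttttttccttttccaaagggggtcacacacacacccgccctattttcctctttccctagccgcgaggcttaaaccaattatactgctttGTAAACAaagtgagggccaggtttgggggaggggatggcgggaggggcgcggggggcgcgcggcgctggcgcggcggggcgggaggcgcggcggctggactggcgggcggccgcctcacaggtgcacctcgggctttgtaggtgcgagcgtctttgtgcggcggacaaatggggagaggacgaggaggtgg

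The element in Th started 45 bases before the start site and the match in Foxa1 141 bases before it. Of the members, 9 were matched in the promoter table, with 10 promoters in all because Aldh1a1 had 2, and Chrna6 had none there. Besides these motifs, AAAGGTCA (the site bound by NR4A2 as a monomer), TAATCC (bicoid type homeobox proteins such as PITX3), TTCNNNGAA (STAT proteins) and TATAAA (the TATA box) were searched on both strands. Among all 32851 promoters of the table, TGACGTCA was held by 1.79%, TGTTTAC by 3.65%, AAAGGTCA by 1.51%, TAATCC by 7.06%, TTCNNNGAA by 8.30% and TATAAA by 13.6%. Among the members' 10 promoters, TGACGTCA, TGTTTAC and TATAAA were each held by 1, the last by Nr4a2, and the other motifs by 0. These are matches of letters in a window, not sites shown to be bound.

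Depth was 24379588 to 29645210 counts on genes per library, and 84.2% to 86.1% of the counts in each table were on genes. Levels are given as CPM, each count divided by the library's total of counts on genes and put on the usual CPM scale, with libraries scaled by TMM factors of 0.985 to 1.01. At this depth 3 counts correspond to 0.101 to 0.123 CPM, a limit that covers counting error only. Stat3 itself, the targeted gene, was read at 64.7 to 67.9 CPM in controls and 62.7 to 70.1 CPM in STAT3 KO (log2 fold change -0.01, SE 0.04), which is the sum over the whole gene and does not resolve the floxed exons. Because libraries were single animals, SDs and p-values below describe the spread between animals. In a bulk sample, fewer cells of a type and less RNA per cell cannot be told apart.

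Dopaminergic neuron genes were read in every library, from 10 counts for Pitx3 at the lowest to 8519 counts for Aldh1a1 at the highest. Per kilobase of merged exons, which allows levels to be set between genes, the order of the medians over 12 libraries was Aldh1a1 (47.8 CPM per kb), Th (20.4), En1 (14.7), Slc6a3 (9.58), Drd2 (7.69), Chrna6 (3.70), Ntsr1 (2.31), Nr4a2 (2.06), Foxa1 (1.58) and Pitx3 (0.384). On the same scale Tph2, the serotonin-synthesising enzyme of raphe neurons, was at 251.5 CPM per kb and the serotonin transporter Slc6a4 at 49.9 CPM per kb. Some neighbours held their order in all libraries: Aldh1a1 was above Th, Drd2 above Chrna6, Chrna6 above Ntsr1 and Foxa1 above Pitx3 in 12 of 12. For other neighbours the order changed between animals and was not tested: Th was above En1 in 9 of 12, En1 above Slc6a3 in 10 of 12, Slc6a3 above Drd2 in 9 of 12, Ntsr1 above Nr4a2 in 8 of 12 and Nr4a2 above Foxa1 in 11 of 12. Slc6a3, which marks dopaminergic neurons more narrowly than Th, was read in all 12 libraries. Th is also made by noradrenergic neurons, and Aldh1a1, En1 and Drd2 by other cells of this region.

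Between genotypes, none of the dopaminergic neuron genes passed the test. With all libraries Slc6a3 had the log2 fold change farthest from 0 of the 10, and its size depended on which control animals were included. Its mean was 53.2 ± 42.1 CPM in controls (SD, n = 4) against 28.3 ± 10.8 CPM in STAT3 KO (SD, n = 8). Estimates for 9 of the 10 genes lay below 0 and that of En1 lay above 0. The median of the members' log2 fold changes was -0.26, beside -0.0011 over all genes tested.

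**Figure D1:**
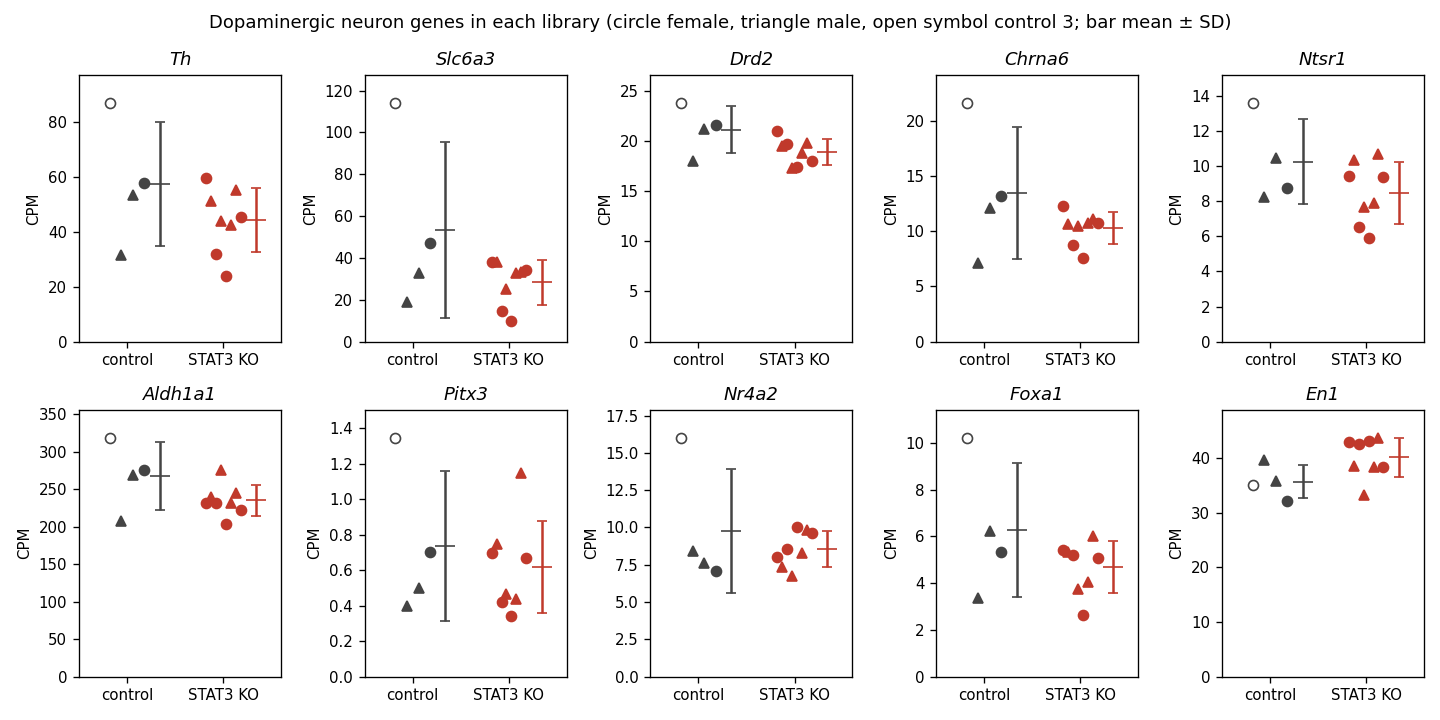
CPM of each dopaminergic neuron gene in every library (y axis, from 0), for control and STAT3 KO mice (x axis); circles are females, triangles males, the open circle is control 3, and bars give the mean ± SD. Control 3 lies above every other library for 9 of the 10 genes, most of all for Slc6a3 at 114 CPM, and En1 is the exception.

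Th and Slc6a3 stand for synthesis and reuptake. Th (chromosome 7, 142892752 to 142931128 of GRCm38) was read at 57.9, 31.6, 86.8 and 53.4 CPM in controls 13, 4, 3 and 11, and at 24.1 to 59.6 CPM in STAT3 KO with a median of 44.7 CPM. The groups overlapped, with only STAT3 KO 10 below the lowest control. Its log2 fold change was -0.38 (SE 0.23, adjusted p = 0.763 by edgeR's quasi-likelihood test). Slc6a3 (chromosome 13, 73536747 to 73578672) was read at 47.2, 18.9, 114 and 32.8 CPM in controls 13, 4, 3 and 11. In STAT3 KO it was read at 9.69 to 38.2 CPM with a median of 33.1 CPM. All 8 STAT3 KO lay below the control mean but only 2 lay below the lowest control, so the groups overlapped here too. For Slc6a3 the log2 fold change was -0.91 (SE 0.39, 95% interval -1.74 to -0.08), with an unadjusted p of 0.034 and an adjusted p of 0.631 by edgeR's quasi-likelihood test. Without control 3 it was -0.22, with a 95% interval of -0.96 to 0.53, and without control 4 it was -1.19, with a 95% interval of -1.97 to -0.41 and an adjusted p of 0.308 by edgeR.

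Receptors on the surface of these neurons came next in the list of roles. Drd2, the dopamine autoreceptor that restrains firing and release, was read at 21.6, 18.03, 23.7 and 21.2 CPM in controls 13, 4, 3 and 11 and at 17.3 to 21.0 CPM in STAT3 KO with a median of 19.1 CPM. Its log2 fold change of -0.16 (SE 0.07) had an adjusted p of 0.646 by edgeR, and 3 of the 8 STAT3 KO lay below the lowest control. Chrna6, a nicotinic receptor subunit concentrated in catecholaminergic neurons, was read at 13.1, 7.16, 21.6 and 12.1 CPM in controls 13, 4, 3 and 11 and at 7.60 to 12.2 CPM in STAT3 KO with a median of 10.7 CPM. Every STAT3 KO lay inside the range of the controls, and the log2 fold change was -0.39 (SE 0.20) with all animals, -0.06 without control 3 and -0.60 without control 4. Ntsr1, the high-affinity receptor of neurotensin, was read at 8.74, 8.25, 13.6 and 10.4 CPM in controls 13, 4, 3 and 11 and at 5.89 to 10.7 CPM in STAT3 KO with a median of 8.62 CPM. Here 4 of 8 STAT3 KO lay below the lowest control, with a log2 fold change of -0.27 (SE 0.16).

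Aldh1a1, a retinaldehyde dehydrogenase found in a subset of midbrain dopaminergic neurons, was read at 276, 208, 318 and 269 CPM in controls 13, 4, 3 and 11 and at 203 to 276 CPM in STAT3 KO with a median of 232 CPM. These groups overlapped over most of their range, with a log2 fold change of -0.19 (SE 0.09). Aldh1a7, a close relative of Aldh1a1 with which reads could be shared, was read at 1.16 to 1.79 CPM.

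The transcription factors had estimates on both sides of 0. En1, a homeobox factor of the midbrain and hindbrain that serotonergic neurons also use, was read at 32.2, 39.6, 35.04 and 35.9 CPM in controls 13, 4, 3 and 11 and at 33.3 to 43.7 CPM in STAT3 KO with a median of 40.5 CPM. Of the 8 STAT3 KO, 4 lay above the highest control, and the log2 fold change of 0.17 (SE 0.07) had an adjusted p of 0.633 by edgeR. Foxa1, a forkhead factor of floor plate and dopaminergic neurons, was read at 5.32, 3.34, 10.2 and 6.24 CPM in controls 13, 4, 3 and 11 and at 2.64 to 6.01 CPM in STAT3 KO with a median of 5.13 CPM. Only 1 STAT3 KO lay below the lowest control, and the log2 fold change was -0.42 (SE 0.24) with all animals, -0.08 without control 3 and -0.63 without control 4. Nr4a2, the nuclear receptor Nurr1, was read at 7.05, 8.43, 15.99 and 7.59 CPM in controls 13, 4, 3 and 11 and at 6.76 to 10.001 CPM in STAT3 KO with a median of 8.42 CPM. Its log2 fold change was -0.19 (SE 0.18) with all animals and 0.16 without control 3. Pitx3, a homeobox factor restricted to midbrain dopaminergic neurons within the brain, was the least abundant member at 10 to 36 counts per library. It was read at 0.701, 0.400, 1.34 and 0.501 CPM in controls 13, 4, 3 and 11 and at 0.343 to 1.15 CPM in STAT3 KO with a median of 0.569 CPM. The estimate for Pitx3 was likewise -0.25 (SE 0.35) with all animals and 0.22 without control 3. Exons of Elovl3 overlap those of Pitx3 on the opposite strand, and Elovl3 was read at 0.034 to 0.202 CPM.

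In edgeR's quasi-likelihood test of genotype, 0 of the 10 members were called at an adjusted p below 0.05, against 0% of the 15453 genes tested, and the members' adjusted p-values lay between 0.631 and 0.924. At an unadjusted p below 0.05 there were 3 members, Slc6a3, En1 and Drd2, where 7.66% of all genes tested passed. DESeq2 called 0 members (0.03% of genes) and had 3 at an unadjusted p below 0.05, En1, Aldh1a1 and Drd2 (6.21% of genes). Limma-voom with sample weights called 0 (0% of genes) and had 3 at an unadjusted p below 0.05 (10.4% of genes). An exact two-sided permutation test of each gene over all splits of the animals into 4 and 8, which can go as low as p = 0.00202, put 0 of the 10 below 0.05, beside 7.1% of all genes. The lowest exact p-values were 0.0646 for Drd2 and 0.0687 for En1, and those of Slc6a3 and Th were 0.206 and 0.283. Groups did not overlap for 0 of the 10, beside 0.447% of all genes.

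Control 3, a female, was the highest library for 9 of the 10 members, and STAT3 KO 10, also female, was the lowest for 6. Without control 3 the test gave 7 estimates below 0 and 3 above 0, with a median of -0.08 over the members and 0.0010 over all genes, and 0 members had an unadjusted p below 0.05, beside 5% of genes. Without it the estimates of Th, Ntsr1, Drd2 and Aldh1a1 were -0.10, -0.11, -0.09 and -0.09. Leaving out this animal ended the unadjusted calls of Slc6a3, En1 and Drd2 while the estimate of En1 stayed at 0.16. Leaving out control 4, a male, went the other way: 7 members had an unadjusted p below 0.05, namely En1, Foxa1, Slc6a3, Aldh1a1, Th, Chrna6 and Drd2, beside 8.96% of genes. The median log2 fold change of the 10 members was then -0.41, with adjusted p-values of 0.197 to 0.773 by edgeR and 0 members called. With any other single animal left out there were 1 to 3 members at an unadjusted p below 0.05.

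**Figure D2:**
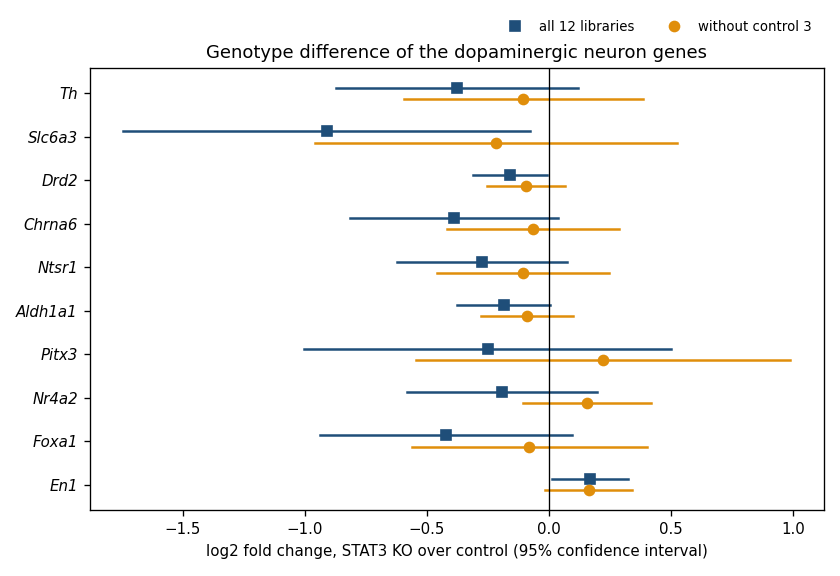
Log2 fold change of STAT3 KO over control (x axis, log2 units) with its 95% confidence interval for each member (y axis), from edgeR, with all 12 libraries (squares) and without control 3 (circles). The intervals of Slc6a3, Drd2 and En1 leave out 0 with all libraries, and without control 3 every interval holds 0.

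Libraries also differed in markers of cells from other regions, which were summed by library. Forebrain excitatory neuron markers were at 151 to 911 CPM in controls and at 183 to 303 CPM in STAT3 KO. The highest was control 4, with the other controls at 151 to 203 CPM. With all libraries, genotype estimates lay below 0 for 8 of these 8 markers. Cerebellar neuron markers were at 94.6 to 241 CPM in controls, the highest in control 3, and at 95.3 to 555 CPM in STAT3 KO, the highest in STAT3 KO 16. Estimates lay above 0 for 5 of these 6 markers. Choroid plexus markers were at 8.25 to 11.5 CPM in controls and at 8.60 to 227 CPM in STAT3 KO, high in STAT3 KO 8 and 16. Estimates lay above 0 for 4 of the 4 choroid plexus markers tested. Serotonergic neuron markers were at 988 to 1180 CPM in controls, the lowest in control 3, and 821 to 1271 CPM in STAT3 KO, the lowest in STAT3 KO 14. Control 4, which had the most forebrain signal, was among the 3 lowest libraries for 6 members, and the part of these cells in the members' levels was not tested.

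Across animals, most of the dopaminergic neuron genes covaried positively. Slc6a3 varied 11.7-fold between the lowest and the highest library, Th 3.60-fold, Pitx3 3.93-fold, Foxa1 3.87-fold, Chrna6 3.01-fold, and Drd2 and En1 1.37-fold and 1.35-fold. Of the 45 pairs of members 37 had a positive Pearson r of log2 CPM over the 12 libraries, with a median of 0.75 and a range from -0.72 for Aldh1a1 with En1 to 0.96 for Th with Slc6a3. Within the 8 STAT3 KO 33 of 45 were positive with a median of 0.51. Over all genes tested the median r was 0.014 with Slc6a3 and 0.0087 with Th, while pairs among other genes were not computed. Control 3 was the highest library for 9 members and STAT3 KO 10 the lowest for 6. The pairs were not counted without these animals.

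**Figure D3:**
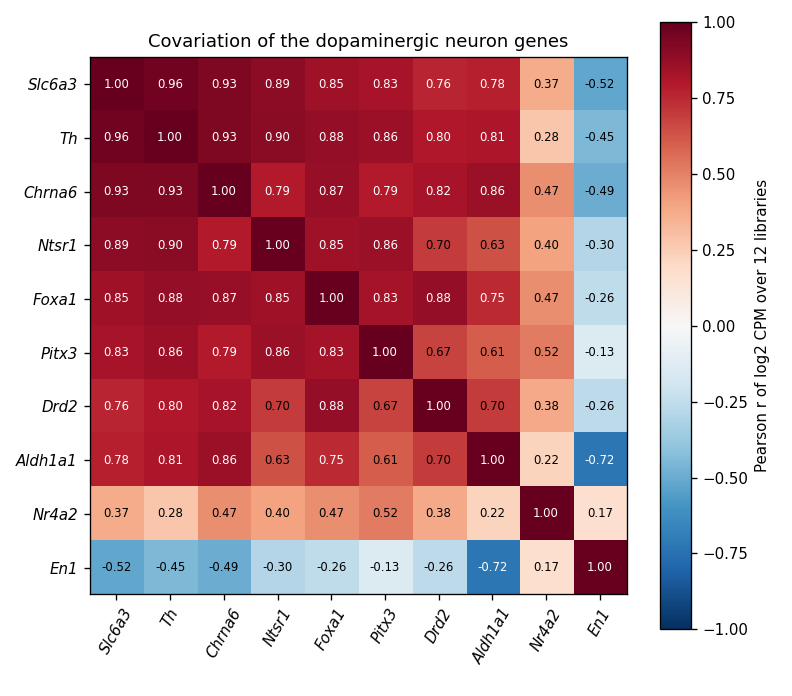
Pearson r of log2 CPM over 12 libraries for every pair of the 10 members, from -1 (blue) to 1 (red). Pairs among Slc6a3, Th, Chrna6, Ntsr1, Foxa1 and Pitx3 lie between 0.79 and 0.96, some pairs of Drd2 and Aldh1a1 reach as high (0.88 for Drd2 with Foxa1, 0.86 for Aldh1a1 with Chrna6), while Nr4a2 is only weakly positive and En1 is negative with 8 of the other 9.

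Slc6a3 was taken as the reference because it marks dopaminergic neurons more narrowly than Th. Of all 15452 other genes tested, Th had the highest r with it, at 0.96 (Spearman rho 0.90). Its permutation p of 1e-05 was the smallest that 100000 resamples can give, and its adjusted p over all genes was 0.039. This call was lost with Spearman's rho (adjusted permutation p = 0.208), without the 2 libraries farthest from the median of Slc6a3 (0.771), within STAT3 KO (0.947) and with any 1 animal left out (0.0515 to 0.348). Without control 3 and STAT3 KO 10, the 2 libraries farthest from the median of Slc6a3, r was 0.91, and within the 8 STAT3 KO it was 0.95. Chrna6 ranked 3 of 15452 with r = 0.93 (rho 0.85), and r was 0.85 without those 2 libraries and 0.96 within STAT3 KO. Ntsr1 ranked 7 with r = 0.89 (rho 0.72), and r was 0.69 and 0.90 in these subsets. The permutation p-values of Chrna6 and Ntsr1 were 1e-04 and 0.00021, and adjusted over all genes they were 0.119 and 0.155.

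The other members were less steady over these subsets. Foxa1 ranked 24 with r = 0.85 (rho 0.67), and r was 0.45 without control 3 and STAT3 KO 10, 0.70 within the 8 STAT3 KO and at least 0.72 with any 1 animal left out. Pitx3 ranked 38 with r = 0.83 (rho 0.88), and r was 0.63 without the 2 and 0.72 within STAT3 KO. For Aldh1a1, at rank 103, r was 0.78 (rho 0.56) with all libraries, 0.40 without the 2 and 0.47 within STAT3 KO. For Drd2, at rank 122, it was 0.76 (rho 0.66), 0.45 and 0.45. The values of Foxa1, Aldh1a1 and Drd2 were thus lower without these 2 animals, which also span the range of Slc6a3 itself. Nr4a2 had r = 0.37 (rho -0.10) with all libraries, -0.19 without the 2, -0.34 within STAT3 KO and -0.46 without control 3 alone. En1 had r = -0.52 (rho -0.39), -0.33 without the 2 and -0.28 within STAT3 KO. Permutation p-values adjusted over all genes were 0.164 to 0.779 for these 6 members.

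By the permutation test 1 of the 9 other members, Th, was called with Slc6a3 at an adjusted p below 0.05, against 0.0259% of all genes called with a positive r. With Th as the reference 0 of 9 were called, against 0% of genes, although r with Slc6a3 and Chrna6 was 0.96 and 0.93 and their adjusted p-values were both 0.0515. The resamples set a lower limit to p, and so to the adjusted p, and a limma fit with the reference gene as a covariate, which has no such limit, was added after the data had been seen. It called 4 of 9 members with Slc6a3, namely Th, Chrna6, Ntsr1 and Foxa1, beside 0.0777% of genes with a positive slope, and 4 of 9 with Th, namely Slc6a3, Chrna6, Ntsr1 and Foxa1, beside 0.136%. Without control 3 the limma fit called Th alone with Slc6a3, beside 0.00647% of genes with a positive slope, and Slc6a3 and Chrna6 with Th, beside 0.0194%. With genotype in the fit it called Th and Chrna6 with Slc6a3 (0.0129% of genes), and the same 4 members again with Th (0.0777% of genes).

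**Figure D4:**
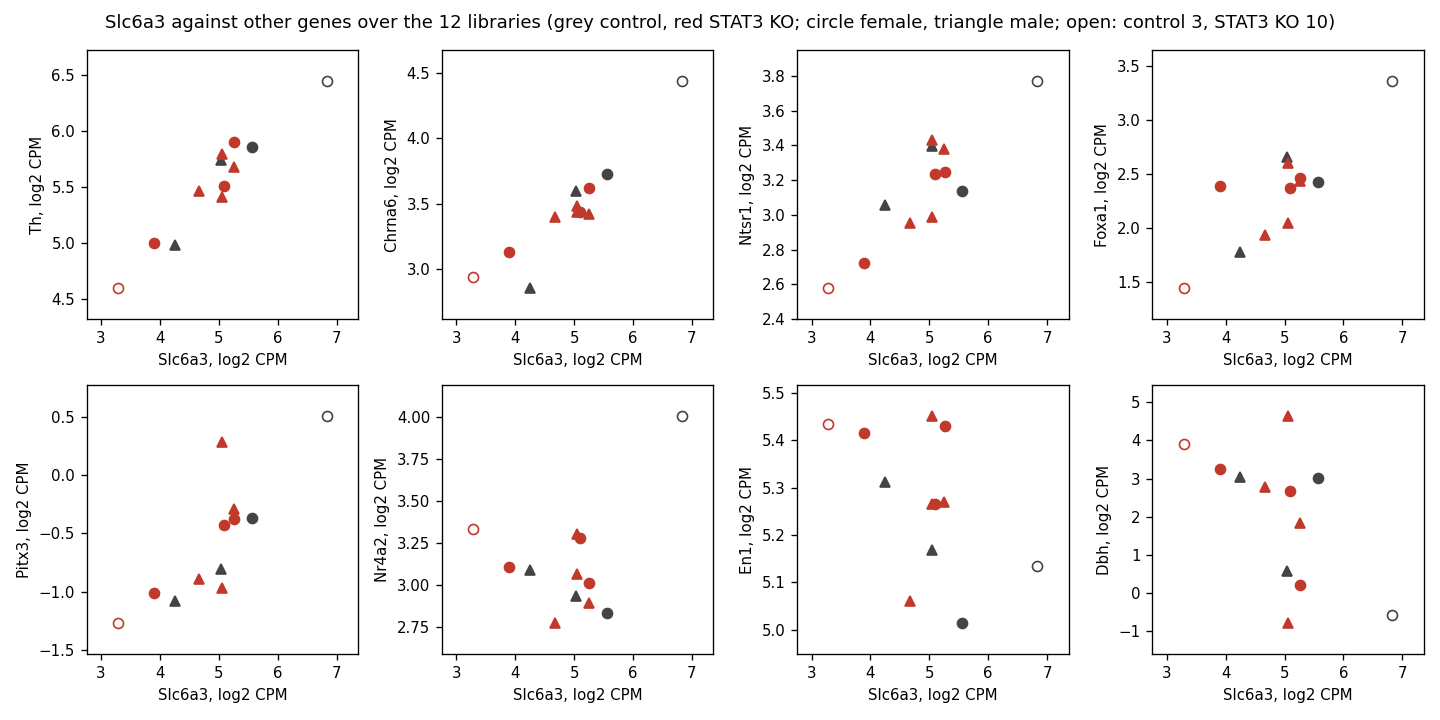
Log2 CPM of Th, Chrna6, Ntsr1, Foxa1, Pitx3, Nr4a2, En1 and Dbh (y axes) against log2 CPM of Slc6a3 (x axis) in the 12 libraries; grey is control, red STAT3 KO, circles females, triangles males, and open circles are control 3 (far right) and STAT3 KO 10 (far left). Th and Chrna6 rise along Slc6a3 also between these ends, whereas Nr4a2 is high in control 3 alone and Dbh tends to fall.

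**Figure D5:**
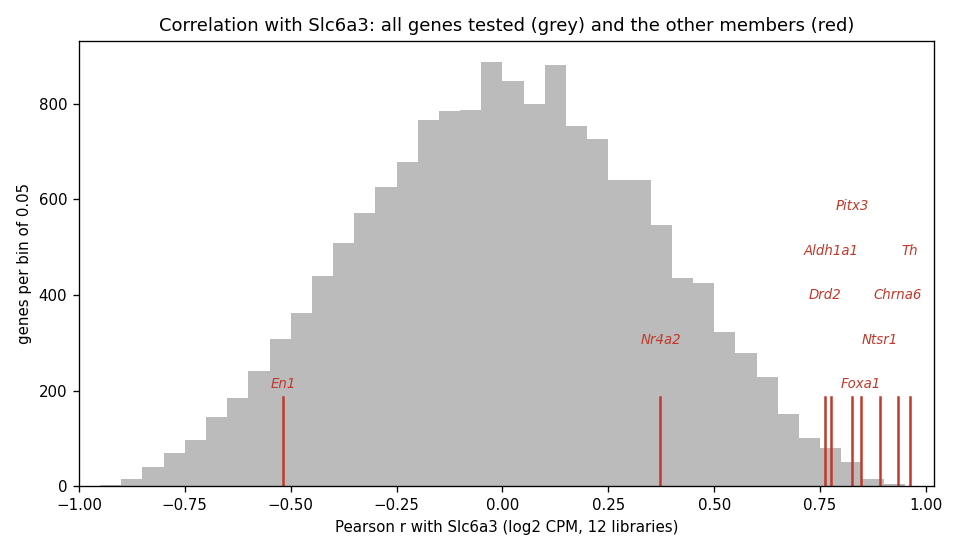
Number of genes (y axis) by Pearson r with Slc6a3 (x axis, bins of 0.05) for 15452 genes, with the other 9 members marked in red. Members from Drd2 at 0.76 to Th at 0.96 lie at the right edge, Nr4a2 lies at 0.37 and En1 at -0.52.

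Of all genes tested, those with the highest r with Slc6a3 after Th were Ralb (0.94), Chrna6, Ndufb8 (0.91), Lox (0.90), Chrnb3 (0.90), Ntsr1, Kcnn1 (0.88), Ppa2 (0.88) and Dis3l (0.87). Chrnb3 encodes a nicotinic subunit that assembles with that of Chrna6 and is its neighbour on chromosome 8. With Th the closest 10 were Ralb (0.97), Slc6a3, Chrna6, Foxp2 (0.92), Ntsr1, Gucy2c (0.90), Lox (0.90), Ret (0.89), Ppa2 (0.89) and Nr1h2 (0.89). Both references were read in the same libraries. Gucy2c encodes a receptor guanylate cyclase and Ret the signalling receptor of GDNF. Both stand on a list of 14 surface and subtype genes of dopaminergic neurons, on which r with Slc6a3 ran from -0.86 for Gfra1, a co-receptor of GDNF, to 0.90 for Chrnb3, with a median of 0.46. Lox is a rare transcript here, with 0.171 to 0.859 CPM.

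Of 40 further genes of the dopamine pathway, listed by role, 38 were tested and 0 were called between genotypes by edgeR, 18 with an estimate above 0 and 20 below 0, with a median log2 fold change of -0.0040. At an unadjusted p below 0.05 there were 4 of the 38, beside the 7.66% of all genes given above, a share to be read beside each count by role. Enzymes of synthesis and breakdown had 0 of 10, with Pcbd1, a recycling enzyme of the hydroxylase cofactor, at 0.12 (SE 0.07) and Qdpr, which also regenerates it, at -0.14 (SE 0.08). Vesicular storage had 0 of 4, with Slc10a4 at 0.10 (SE 0.06) and Sncg at -0.08 (SE 0.07). Of the other dopamine receptors 2 of 4 were tested, with Drd5 at 0.19 (SE 0.12) and Drd1 at 0.02 (SE 0.18). Transcription factors had 1 of 8, En2, the relative of En1, at 0.26 (SE 0.12), and Foxa2 was at -0.34 (SE 0.26). Surface and subtype genes had 3 of 14, all with estimates below 0, Cck, a peptide of midbrain dopaminergic neurons, at -0.55 (SE 0.19), Chrna4 at -0.21 (SE 0.09) and Gucy2c at -0.69 (SE 0.30), and 11 of the 14 estimates lay below 0.

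The 10 enzymes of synthesis and breakdown had a median r of -0.23 with Slc6a3, from -0.72 for Pcbd1 to 0.52 for Spr. Ddc, the decarboxylase that serotonergic neurons also need, was at -0.18. Without control 3 and STAT3 KO 10, Pcbd1, Spr and Ddc were at -0.35, 0.52 and -0.29. Within STAT3 KO they were at -0.26, 0.51 and 0.33, so that Ddc changed sign. The vesicular transporter Slc18a2 had r = -0.27, but 0.35 within STAT3 KO and -0.69 to 0.21 with 1 animal left out. The 8 further transcription factors had a median of -0.01, from -0.55 for En2 to 0.86 for Lmx1a, a factor of the midbrain floor plate. Without control 3 and STAT3 KO 10, En2 and Lmx1a were at -0.11 and 0.67, and within STAT3 KO at -0.63 and 0.72. The 7 serotonergic neuron markers had a median r of -0.32, from -0.60 to 0.37. Of these Tph2 was at -0.33, and Slc6a4, the only one above 0, at 0.37. Without control 3 and STAT3 KO 10 these 2 were at -0.28 and 0.01, and within STAT3 KO at 0.17 and 0.21.

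Noradrenergic neurons of the nearby locus coeruleus also make Th, so their markers were read beside it. Dbh, which turns dopamine into noradrenaline, was read at 7.95, 8.18, 0.598 and 1.43 CPM in controls 13, 4, 3 and 11 and at 0.506 to 24.7 CPM in STAT3 KO with a median of 6.58 CPM. Slc6a2, the noradrenaline transporter, ran with it, at 0.675 to 30.0 CPM over all libraries. Summed over 5 markers of these neurons, the level was 2.91 to 20.8 CPM in controls and 2.80 to 57.8 CPM in STAT3 KO, with Hand2 at 0 in every library. STAT3 KO 14, with the most Dbh, had 42.5 CPM of Th, and control 3, with the most Th, had 0.598 CPM of Dbh. Over 12 libraries r of Dbh and Slc6a2 was -0.74 and -0.75 with Th, and -0.60 and -0.62 with Slc6a3, with permutation p-values adjusted over all genes of 0.324, 0.321, 0.514 and 0.485. Without control 3 and STAT3 KO 10 it was -0.61 and -0.62 with Th, and -0.30 and -0.32 with Slc6a3. The ratio of the CPM of Th to that of Slc6a3 was lowest in control 3, at 0.762, and highest in STAT3 KO 10, at 2.49, where Dbh was at 15.04 CPM. The ratio was 1.28 in STAT3 KO 14, with the most Dbh, and 1.67 in STAT3 KO 15, with the least at 0.506 CPM. Astrocyte markers had a median r of -0.55 with Slc6a3 (5 of 5 negative, summed level 705 to 883 CPM in controls and 781 to 1036 CPM in STAT3 KO) and oligodendrocyte markers a median r of 0.56 (5 of 5 positive, 13026 to 14424 CPM and 11188 to 15185 CPM). The part of noradrenergic and glial cells in the level of Th and in the members' covariation was not tested.

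No member was called between sexes, and the difference between genotypes pointed different ways in females and males for several of them. In females the mean log2 CPM of Slc6a3 in STAT3 KO minus that in control was -1.81, with values of 9.69 to 38.2 CPM against 47.2 and 114 CPM. In males the corresponding difference was 0.36, with 25.4 to 38.1 CPM against 18.9 and 32.8 CPM. All 4 female STAT3 KO lay below, and all 4 male STAT3 KO above, the mean of the controls of their sex on the log2 scale, and the same held for Th and Chrna6. The male control mean was low through control 4. Control 11 lay within the range of male STAT3 KO for Slc6a3 and Th and above it for Chrna6. With sex in a fit beside genotype, 0 of the 10 members were called between sexes (0.0841% of genes called) and 0 had an unadjusted p below 0.05 (7.2% of genes). For the interaction of genotype and sex 0 of 10 were called (0% of genes), and 5 of 10 had an unadjusted p below 0.05, beside 5.49% of genes. These were Aldh1a1 (0.48, SE 0.14), Slc6a3 (2.06, SE 0.65), Chrna6 (0.99, SE 0.32), Pitx3 (1.59, SE 0.63) and Th (1.03, SE 0.41), as log2 differences of male over female effects, with adjusted p-values of 0.898 to 0.907 by edgeR. Each sex had 2 controls. Without control 3, 1 of the 5 kept an unadjusted p below 0.05 (3.58% of genes), Aldh1a1 at 0.37 (SE 0.16), and Slc6a3 was at 1.29 (SE 0.67). Without control 4, 2 of 10 members were below 0.05 (4.37% of genes), Slc6a3 and Aldh1a1. Without control 13 there were 8 of 10 (5.87% of genes), with Slc6a3 at 2.56 (SE 0.66), and without control 11 there were 7 of 10 (6.14% of genes), with Aldh1a1 at 0.68 (SE 0.14) and an adjusted p of 0.0719 by edgeR, and 0 members were called in any of these fits. With any 1 STAT3 KO left out there were 5 to 6.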

How the data were processed

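The authors prepared 1 RNA library per animal from DR tissue of 4 control and 8 STAT3 KO mice. The deposited tables hold raw counts per gene symbol. Submitters' processing notes name bcl2fastq, STAR 2.5.0b, DESeq2 1.6.3 and the mm10 build; the read counter, annotation and use of strand are not given in the sources used here. The closing lines for reads without a single gene were left out. Genotype and sex came from the labels.

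edgeR 4.0.16 (R 4.3.3) tested genotype by its two-sided quasi-likelihood test with TMM scaling and filterByExpr (15453 genes) and Benjamini-Hochberg adjustment over all of them, with a threshold of 0.05. Sex and its interaction were fitted likewise. Pearson r of log2 CPM (prior count 2) was tested with 100000 permutations, and single genes by exact permutation. DESeq2 1.42.0 without independent filtering, limma 3.58.1, other filters and scalings, and each animal left out served as alternatives. Python 3.11.15 with pandas 2.3.3, numpy 2.4.6, scipy 1.17.1 and matplotlib 3.10.9 was used. Positions and exon lengths came from GENCODE vM21 and promoters from RefSeq. Fits were tested on simulated data. Members and lists were chosen with earlier results of these data known. Genes named were all members, Stat3, Tph2, Slc6a4, Dbh, Slc6a2, the 2 with the lowest unadjusted p of each list of the pathway and the 10 closest to Slc6a3 and to Th. Added after values were seen were the limma fit with a reference gene, 2 motifs, Aldh1a7, Elovl3, Hand2, Gucy2c, Gfra1, Ddc, Slc18a2, Spr and Lmx1a as named examples.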

Additional observations from a re-analysis of the deposited data

Results flagged for a closer look

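Results stood out for 3 members because the mean log2 difference of STAT3 KO minus control was below 0 with every female STAT3 KO below the female control mean, and above 0 with every male STAT3 KO above the male control mean. For Slc6a3 the difference was -1.81 in females and 0.36 in males, for Th -0.90 and 0.22, and for Chrna6 -0.80 and 0.21. The interaction term tested this difference, and its adjusted p by edgeR was 0.898 for Slc6a3 and Chrna6 and 0.907 for Th. Each sex had 2 controls, and control 3, a female, was the highest library for all 3 genes. In males, control 4 lay below every STAT3 KO for all 3, but control 11 did not. For Slc6a3 and Th control 11, at 32.8 and 53.4 CPM, lay within the range of male STAT3 KO (25.4 to 38.1 and 42.5 to 55.3 CPM). For Chrna6 it lay above that range, at 12.1 against 10.5 to 11.1 CPM. No animal stood far outside its group by Dixon's test in the 20 groups examined, where chance would give about 1.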

How the results depend on the processing

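Between genotypes, 0 members were called under each of the 18 alternatives, DESeq2, limma-voom, another scaling, other filters, adjustment for sex and removal of single animals. Over all genes 0 were called, with 6 by DESeq2 and 1 without control 4, and between 0 and 1 with 1 animal left out. The log2 fold change of Nr4a2 turned to 0.011 with limma-voom and to 0.16 without control 3 (-0.31 to 0.16 with 1 animal left out), and that of Pitx3 to 0.22 without control 3 (-0.46 to 0.22); the cause was not tested. For Slc6a3 it ranged from -1.19 to -0.22 with 1 animal left out, for Th from -0.58 to -0.10, for Foxa1 from -0.63 to -0.08 and for Chrna6 from -0.60 to -0.06, the lesser ends without control 3 and the greater ends without control 4. Members at an unadjusted p below 0.05, 3 with all animals, numbered 0 without control 3 and 7 without control 4; for the interaction of genotype and sex, 5 became 1 without control 3, 2 without control 4, 7 without control 11 and 8 without control 13, with 0 called in each.

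The call of Th with Slc6a3 in the permutation test was lost with Spearman's rho (0 members, rho 0.90, adjusted p = 0.208), without the 2 farthest libraries (0 members), within the 8 STAT3 KO (0 members) and with any 1 animal left out (0 to 1 members over all such fits, limma included), while r was 0.91 without the 2 libraries, 0.95 within STAT3 KO and 0.94 to 0.97 with 1 animal left out. Limma with the reference gene, added later, called 4 members with Slc6a3 and 2 with genotype in the fit; with Th it called 4 and 4, and 2 without control 3, so that leaving out an animal gave 0 to 2. The r of Nr4a2 with Slc6a3 turned to -0.10 (Spearman), -0.19 (without 2 libraries), -0.34 (STAT3 KO alone) and -0.46 (without control 3), and that with Th to -0.091, -0.20, -0.34 and -0.45; with 1 animal left out they ranged up to 0.61 and 0.50.

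No paired analysis was possible because animal numbers are not shared between the groups. Pitx3 rests on 10 to 36 counts per library and the comparison within each sex on 2 controls.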
